A study of Sus scrofa with 45 samples.

Results

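The comparison described here is that of white blood cells from pigs given feed rich in fat, cholesterol and sucrose (HFCSD) with white blood cells from pigs fed standard feed (control), both after 27 weeks. It covers 8 of the 45 arrays of the series, which are all 4 HFCSD and all 4 control arrays whose labels give white blood cells and 27 weeks. The study fed male Clawn miniature pigs, 12 weeks old at the start and raised free of specific pathogens, for 27 weeks, with 5 pigs per diet. The feed of the HFCSD pigs held 15% lard, 2% cholesterol and 37% sucrose, and a further group ate the same lard and cholesterol without the added sucrose (HFCD). Total RNA of white blood cells was taken from whole blood with a kit that catches leukocytes on a filter (LeukoLOCK) and hybridized to a 1-colour Agilent porcine array with 43603 probes. The question was which genes of circulating leukocytes differ in RNA level after long feeding with fat, cholesterol and sucrose.

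Cells sense sterols through proteins of the endoplasmic reticulum membrane. When sterols are scarce, SCAP carries the transcription factor SREBP-2 to the Golgi, where it is cut and freed to switch on the genes of cholesterol synthesis and uptake, and when sterols are plentiful INSIG proteins hold it back. Oxidized derivatives of cholesterol activate the nuclear receptor LXR, which switches on genes of cholesterol export such as ABCA1.

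Values are given as normalized signal, the log2 of the background-subtracted fluorescence after all arrays were brought to 1 common distribution, so that a difference of 1 is a doubling. A probe counts as well above background when the scanner software marked its signal so, which it did for 43.9% to 50.9% of the spots on the control arrays and for 46.1% to 48.6% of the spots on the HFCSD arrays. A probe was tested when all arrays of either group compared had it well above background, and limma, a linear model that shares information on the spread across probes, gave the difference, its standard error (SE) and p. Adjusted p values are corrected by the Benjamini-Hochberg method over all probes tested, and a probe is called at an adjusted p under 0.05. Of the 19105 probes tested, 1655 carried the symbol of a gene, for 1171 genes, because the array annotation names few probes. No genome was at hand, so no positions are given.

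ABCA1, the membrane pump that loads cholesterol onto apolipoprotein A-I, rose in the white blood cells of HFCSD pigs, and SQLE, the squalene epoxidase of cholesterol synthesis, fell. ABCA1 (probe A_72_P079266) was at 9.75, 10.03, 10.25 and 10.24 in control arrays 1 to 4 and at 12.79, 12.28, 12.64 and 12.70 in HFCSD arrays 1 to 4. Every HFCSD array was above every control array for ABCA1, a rise of 2.53 (SE 0.18, n = 4 per group) that is 5.78-fold, at an adjusted p of 0.000149. SQLE (probe A_72_P088686) was at 7.57, 7.78, 7.63 and 7.09 in the control arrays and at 5.63, 6.25, 5.95 and 5.76 in the HFCSD arrays. Every HFCSD array was below every control array for SQLE, which fell by 1.62 (SE 0.21, n = 4 per group), at an adjusted p of 0.0185 in limma. Both genes had been picked with earlier results of these arrays known, which is not independent evidence, and both passed the test over all probes.

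The other 5 probes called have no gene name in the array annotation. Probes A_72_P202657 and A_72_P034336, which carry the identifier of 1 shared transcript cluster, rose by 2.22 (SE 0.28) and 1.91 (SE 0.20), with adjusted p values of 0.0185 and 0.00486 and n = 4 per group in limma. A_72_P202657 was at 5.84, 6.12, 6.87 and 5.69 in the control arrays and at 7.98, 8.36, 8.58 and 8.46 in the HFCSD arrays. Another unnamed probe rose from 6.96, 6.66, 7.04 and 6.41 in the control arrays to 8.89, 8.29, 9.15 and 9.37 in the HFCSD arrays. The smallest of the rises called, 1.65 (SE 0.22), was also that of an unnamed probe, from 6.27, 5.57, 5.62 and 5.80 to 7.56, 6.97, 7.43 and 7.87. A_72_P026506 was at 7.16, 6.34, 6.31 and 6.86 in the control arrays and at 4.64, 4.72, 5.18 and 5.38 in the HFCSD arrays. It fell by 1.69 (SE 0.24), at an adjusted p of 0.032 in limma. In none of these 5 probes did the HFCSD and control arrays overlap.

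**Figure D1:**
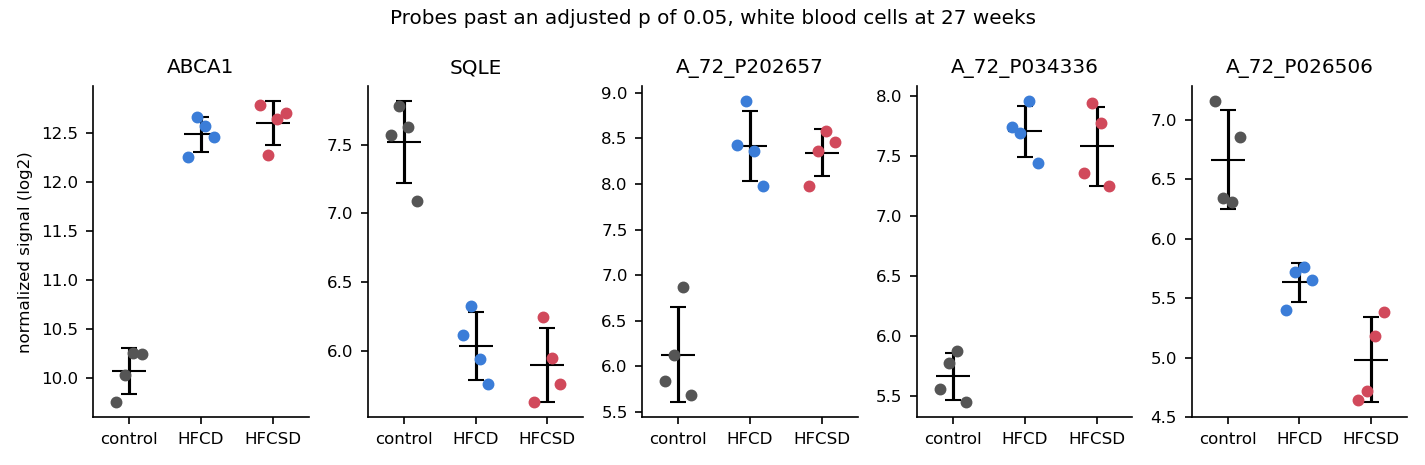
Normalized signal (log2) of ABCA1, SQLE and 3 unnamed probes in each of the 4 control, 4 HFCD and 4 HFCSD arrays of white blood cells, with points for arrays, a horizontal line for the mean and bars for the SD. ABCA1 lies between 9.75 and 10.25 in the control arrays and between 12.28 and 12.79 in the HFCSD arrays.

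In all, 5 probes rose and 2 fell, so that 7 of 19105 probes (0.0366%) were called. At an unadjusted limma p under 0.05 there were 2170 probes (11.4%), of which 1335 (6.99%) were higher and 835 (4.37%) lower in HFCSD. All 4 HFCSD arrays lay above all 4 control arrays for 755 probes (3.95%) and below them for 429 (2.25%). The criterion of the methods, a fold over 2 or under 0.5 with an unadjusted p under 0.05 by a test that takes the spread of each probe alone, took 328 probes (1.72%), 227 higher and 101 lower in HFCSD (215 higher and 439 lower without control array 1), and 0 of the 19105 passed an adjusted p of 0.05 by that test.

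The arrays lay on 3 slides that each held several groups. Slide 1 held control arrays 1 and 4 and HFCSD array 2, slide 2 held control array 2 and HFCSD array 3, and slide 3 held control array 3 and HFCSD arrays 1 and 4. ABCA1 was higher in HFCSD by 2.28, 2.61 and 2.49 within slides 1, 2 and 3, and by 2.46 with the slide as a block in limma (adjusted p 0.00134). SQLE differed by -1.08, -1.83 and -1.94 within the slides, and by -1.63 with the slide as a block, where it was no longer called (adjusted p 0.113). When the background was subtracted by another method (normexp), the difference of SQLE was -0.92. That of A_72_P026506 was then -0.80, and this probe was no longer called (adjusted p 0.0867 in limma). A_72_P034336 was higher by 2.43, 2.00 and 1.43 within the slides and stayed called with the slide as a block, at 1.96 (adjusted p 0.0358). A_72_P202657 (2.60, 2.46 and 1.35 within the slides) and A_72_P026506 (-2.29, -1.15 and -1.30) kept their direction, and with the slide as a block their adjusted p values were 0.079 and 0.137. The count of probes called went from 7 to 2 with the slide as a block and to 1, ABCA1, when limma was fitted to these 8 arrays alone. It was 79 when limma was fitted to all 45 arrays.

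The count also rested on single arrays. Without HFCSD array 2 it was 59, and AIF1 (-1.97, adjusted p 0.0251 in limma) was then among the probes called. It was 2 without control array 2, HFCSD array 3 or HFCSD array 4, and 3 without control array 3, control array 4 or HFCSD array 1. SQLE lost its call without control array 2 or 3 and without HFCSD array 1, 3 or 4, at adjusted p values from 0.084 to 0.0962 in limma and differences from -1.64 to -1.53, whereas ABCA1 kept its call without each of the 8 arrays, with differences from 2.43 to 2.64. Of the unnamed probes, A_72_P034336 kept its call in all 8 of these fits, A_72_P202657 in 4 and A_72_P026506 in 1. The remaining unnamed probes called each kept it in 2. The count by the criterion of the methods was 654 without control array 1, where most, 439, were lower in HFCSD, 594 without HFCSD array 2, 214 without HFCSD array 1 and 204 without HFCSD array 4.

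Apart from SQLE, 4 of the 5 genes tested of cholesterol synthesis, the list for the route from acetyl-CoA to cholesterol, were lower in HFCSD, with a median difference of -0.51. With SQLE, 5 of 6 were lower, with a median of -0.63, against -0.03 over all 1171 named genes, of which 609 were lower. MSMO1, a sterol demethylase, was at 6.84, 6.82, 6.71 and 5.46 in the control arrays and at 4.45, 5.56, 5.47 and 5.08 in the HFCSD arrays. For MSMO1 control array 4 lay below HFCSD arrays 2 and 3, and the difference was -1.32 (SE 0.34, n = 4 per group, adjusted p 0.281 in limma). CYP51A1, the lanosterol demethylase, differed by -0.75 and -0.74 on its 2 probes, and the mevalonate kinase gene MVK by -0.03 and 0.33 on its 2 probes. SQLE was the 1 probe called among the 8 tested, and of the other 7, 4 were lower at an unadjusted p under 0.05 in limma, beside 4.37% of all probes. The mean level of the genes other than SQLE, a choice made after seeing the data, was 0.39, 0.57, 0.50 and 0.02 in the control arrays and -0.35, -0.22, -0.18 and -0.04 in the HFCSD arrays, centred over the 12 white blood cell arrays and with no overlap. Their median difference was -0.59, -0.97 and -0.46 within slides 1, 2 and 3 and -0.55 with the slide as a block. The median of the whole list was -0.64, -1.16 and -0.77 within the slides and -0.72 with the slide as a block, and it was -0.34 with normexp.

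Among genes of sterol sensing and uptake of low-density lipoprotein, 5 of 6 tested were lower, beside 609 of the 1171 named genes, with a median difference of -0.14, and 0 of 8 probes had an unadjusted limma p under 0.05 in either direction, beside 11.4% of all probes. The direction of the list did not hold within the slides, where the median was 0.05, -0.05 and -0.05, and it was -0.03 with the slide as a block and 0.01 without HFCSD array 1. The genes of the sterol-sensing machinery differed by -0.18 for INSIG1, by -0.22 for SREBF2, which encodes SREBP-2, and by 0.05 on both probes of SCAP. NPC2, which hands cholesterol out of lysosomes, differed by -0.39, its membrane partner NPC1 by -0.10, and SREBF1, which encodes the factor of fatty acid synthesis, by -0.14 and -0.02 on its 2 probes. With the slide as a block the differences of SREBF1 and SREBF2 turned to 0.17 and 0.09. Without control array 1 the difference of NPC1 was 0.10 and that of SCAP -0.05, and without HFCSD array 1 that of NPC1 was also 0.10. With 1 array left out, NPC2 ran from -0.60 to -0.19, INSIG1 from -0.34 to -0.09, SREBF2 from -0.48 to 0.04 and the first probe of SREBF1 from -0.33 to 0.31.

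The list of LXR targets had 5 genes tested, of which 4 were higher, with a median difference of 0.33. Apart from ABCA1, 0 of its probes had an unadjusted p under 0.05 in limma. PLTP, the phospholipid transfer protein, was at 3.84, 5.98, 6.40 and 6.03 in the control arrays and at 7.52, 7.36, 5.48 and 5.25 in the HFCSD arrays. For PLTP the groups overlapped, with a difference of 0.84 (SE 0.75, n = 4 per group) that was 0.27 without control array 1 and 2.43, -0.50 and -0.01 within slides 1, 2 and 3. NR1H3, the gene of LXR alpha, differed by 0.19 (0.08 to 0.43 with 1 array left out) and -0.01 on its 2 probes. SCD, the stearoyl-CoA desaturase, differed by 0.36 and 0.30 and lay at the median of the list. Its first probe turned to -0.04 with normexp and to -0.37 without control array 4, on which it was not well above background. With signals raised to the floor described below, the difference of that probe was -0.02. The median of the list was 1.1, 0.28 and -0.01 within slides 1, 2 and 3, 0.30 with the slide as a block, 0.72 without control array 2 and 0.07 with normexp. Fatty acid synthesis and storage had a median of 0.16 over 5 genes, which was -0.07 without control array 4, 0.35 without HFCSD array 1 and 0.43, 0.10 and -0.03 within slides 1, 2 and 3. FASN, the fatty acid synthase, differed by 0.89 (SE 0.29, n = 4 per group, adjusted p 0.326 in limma). DGAT1, which makes triglyceride, went the other way, with a difference of -0.65 (SE 0.27, n = 4 per group, adjusted p 0.406 in limma) and no overlap.

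Interferon-induced genes were mostly higher in HFCSD, 12 of 15 tested, with a median difference of 0.49 against -0.03 over all named genes. RSAD2, an antiviral enzyme, was at 9.0, 7.39, 9.42 and 8.16 in the control arrays and at 10.08, 10.64, 10.08 and 10.47 in the HFCSD arrays, with no overlap and a difference of 1.82 (SE 0.58). MX2, an antiviral GTPase, was at 8.36, 7.37, 8.43 and 7.75 in the control arrays and at 9.53, 9.42, 9.22 and 10.26 in the HFCSD arrays, with no overlap and a difference of 1.63 (SE 0.46). LGALS9, a galectin, and CXCL10, a chemokine, differed by 1.19 and 1.90 with overlapping groups, and CXCL10 was well above background on 3 control arrays. The difference of CXCL10 was 4.77, 2.03 and -1.51 within slides 1, 2 and 3, from 0.92 (without control array 4) to 2.80 (without control array 3) with 1 array left out, and 1.39 with signals raised to the floor described below. None of the 30 probes of the list was called, 9 were higher and 1 was lower at an unadjusted p under 0.05 in limma, beside 6.99% and 4.37% of all probes. The mean level of the list was 0.23, -0.98, -0.19 and -1.28 in the control arrays and -0.24, 0.15, 0.31 and 0.22 in the HFCSD arrays, so that control arrays 1 and 3 overlapped the HFCSD arrays. The median was 0.67, 1.27 and 0.34 within the slides, 0.45 with the slide as a block, 0.81 without control array 1, 0.75 without HFCSD array 2 and 0.31 without control array 4.

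Genes of cytosolic ribosomal proteins were higher in HFCSD for 28 of 30 tested, while 562 of the 1171 named genes were higher. RPL22, a protein of the large subunit, was at 14.37, 14.27, 14.40 and 14.09 in the control arrays and at 14.90, 14.80, 14.96 and 15.02 in the HFCSD arrays. The groups did not overlap for RPL22, with a difference of 0.64 (SE 0.15, n = 4 per group, adjusted p 0.263 in limma). RPS25 and RPS26, proteins of the small subunit, differed by 0.87 and 0.78, also without overlap. The median difference of the list was 0.28, and 16 of its 61 probes were higher at an unadjusted p under 0.05 in limma, with 0 lower, beside 6.99% and 4.37% of all probes, and 0 were called. The mean level of the list was -0.16, -0.20, -0.08 and -0.21 in the control arrays and 0.04, 0.12, 0.23 and 0.16 in the HFCSD arrays. Its median was 0.26, 0.39 and 0.18 within slides 1, 2 and 3 and 0.27 with the slide as a block. Genes of the respiratory chain and ATP synthase had a median of 0.30, with 16 of 19 higher, and 0.38, 0.42 and 0.06 within the slides. Genes of the proteasome had a median of 0.23, with 6 of 7 higher, and 0.51, 0.41 and -0.06 within the slides. Control array 1 had the lowest mean level of both lists, -0.42 and -0.43.

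Beyond these lists, the largest differences among named genes with separated groups were in genes of varied function. AQP1, a water channel, was at 2.09, 2.08, 3.88 and 3.41 in the control arrays and at 5.97, 3.95, 5.52 and 7.04 in the HFCSD arrays, without overlap. AQP1 was well above background on 1 control array and on 4 HFCSD arrays, so its difference of 2.75 (SE 0.65) was also taken with a floor. With every array taken at no less than its floor, the lowest normalized signal of any probe well above background on it, AQP1 was 4.48-fold higher in HFCSD, a difference of 2.16. That value is an estimate and not a minimum, as the difference with normexp, given below, was smaller. YLPM1, a nuclear protein, differed by 0.94 (SE 0.17), CYB5A, cytochrome b5, by 0.92 (0.60 without HFCSD array 4), and LAG3, an inhibitory receptor of activated T cells, by 0.91. The differences were 0.88 for CMAH, which makes N-glycolylneuraminic acid, 0.87 for the cell cycle kinase CDK6, 0.86 for the RNA helicase DDX21 and 0.82 for the retinal reductase DHRS4, which was well above background on 2 control arrays (0.66 with the floor). AIF1, a calcium-binding protein of monocytes and macrophages, was at 11.66, 11.19, 11.24 and 10.92 in the control arrays and at 8.85, 10.91, 9.88 and 9.12 in the HFCSD arrays, with a difference of -1.56 (SE 0.38). WNT10B, a secreted signal, differed by -1.72 (SE 0.43), and FFAR2, a receptor for short-chain fatty acids that was well above background on 3 HFCSD arrays, by -1.65 (SE 0.60), or -1.30 with the floor and -1.09 without HFCSD array 1. MYD88, the adaptor of Toll-like receptors, differed by -1.06, the monoamine oxidase MAOA by -1.21, the muscle protein MYBPH by -1.29, the transcription factor KLF7 by -1.13 and the ribonuclease ANG by -1.03. CHI3L1, a glycoprotein of macrophages and neutrophils, differed by -1.02, coagulation factor gene F10 by -1.01 and the sulfotransferase SULT1A3 by -0.95. With normexp the difference was 0.82 for AQP1, -0.38 for FFAR2 and 0.16 for DHRS4. None of these genes was called in the main fit, where their adjusted p values ran from 0.164 for YLPM1 to 0.397 for SULT1A3 in limma. With all 45 arrays in the fit, YLPM1, DDX21 and AIF1 were called, at adjusted p values of 0.0151, 0.0325 and 0.0359 in limma. Without HFCSD array 2, AQP1 and AIF1 were called, at adjusted p values of 0.0495 and 0.0251 in limma.

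**Figure D2:**
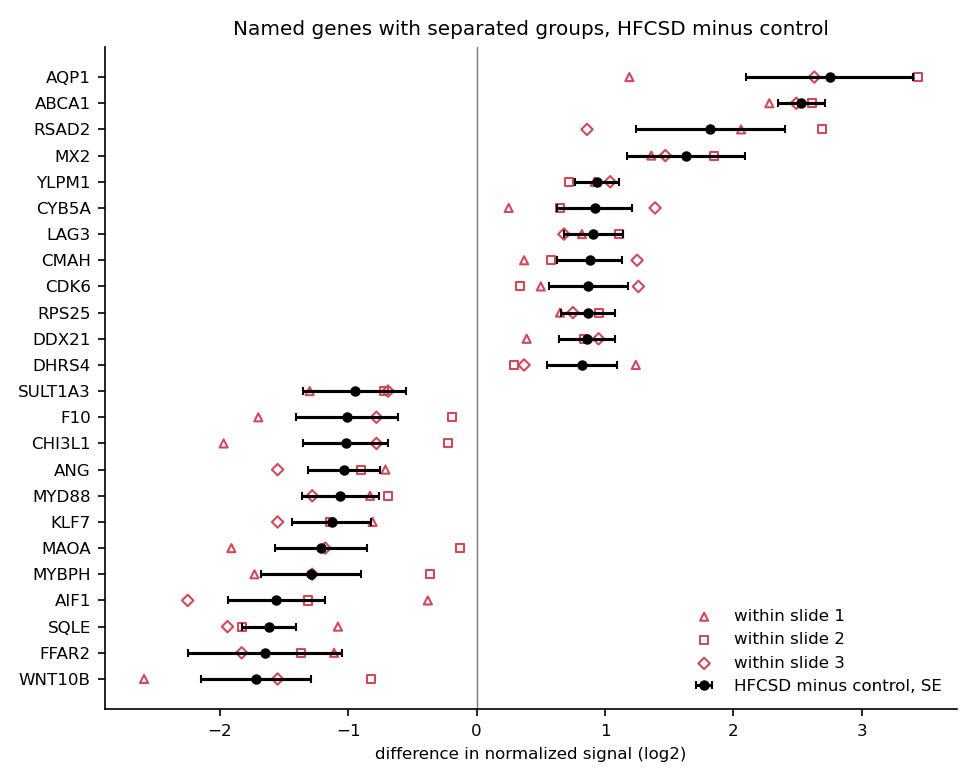
Difference in normalized signal (log2), HFCSD minus control, for the 24 named genes with the largest differences among those at an unadjusted p under 0.05 whose groups did not overlap, with filled points and SE bars for the 8 arrays and open symbols for the difference within each slide. ABCA1 lies at 2.53 and SQLE at -1.62, and the point of AQP1 rests on 3 control arrays that were not well above background.

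The RNA carried the markers of leukocytes that the label gives, and also those of platelets. Markers of T cells were well above background on all 12 white blood cell arrays for 9 of 9 genes with a named probe, those of neutrophils for 6 of 7, those of monocytes and macrophages for 6 of 8 and those of B cells for 2 of 2. The haemoglobin gene HBA, the 1 erythroid marker with a named probe, was well above background on 0 of the 12 arrays. Its probe lay between 1.38 and 1.94, and whether it responds to haemoglobin RNA was not tested. It therefore does not show that erythroid RNA was absent. Genes listed as markers of other tissues were mixed, and which cells their RNA came from was not tested. Of 10 liver genes, 7, ALB among them, were well above background on none of the 12 arrays and 1, HP, on all. Of 11 genes of smooth muscle and vessel wall, 2 (COL1A1 and COL1A2) were so on none and 5, such as PECAM1 and MGP, on all. Like the platelet gene ITGA2B, PECAM1 was lowest in control array 1 and HFCD array 2 among the 12 arrays. Of 16 skeletal muscle genes 7 were so on none and 4 on all, and of 9 adipose genes 4 on none and 3 on all. Platelet markers were well above background on all 12 arrays for 7 of 8 genes. By the mean signal of its probe over the 12 arrays, PF4 was the brightest of them. The platelet integrin gene ITGA2B was at 8.62, 13.92, 14.14 and 14.74 in the control arrays and at 14.05, 13.27, 10.73 and 10.64 in the HFCSD arrays. Control array 1 thus stood apart, and the mean level of 7 platelet genes was -3.42 in it, against 1.81, 1.90 and 2.10 in the other control arrays and 1.47, 1.07, -1.08 and -1.54 in the HFCSD arrays. The median difference of the platelet genes was -0.58, or -1.95 without control array 1 and -0.06 without control array 4, and within slides 1, 2 and 3 it was 1.75, -3.05 and -1.97. CNN1 and TPM1, genes of contractile proteins picked in the same way as ABCA1 and SQLE, were also lowest in control array 1 among the control arrays. CNN1 was at 1.58, 7.90, 8.40 and 9.43 in the control arrays and at 6.96, 6.91, 5.86 and 4.80 in the HFCSD arrays, a difference of -0.69 (SE 1.69) with control array 1, where it was not well above background (-1.13 with the floor), and -2.44 without it. Without control array 4 the difference was 0.18. The 4 probes of TPM1 differed by 0.04, -0.76, -1.15 and -0.91, of which none was called, and by -0.33, -1.93, -2.13 and -2.05 without control array 1.

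Markers of monocytes and macrophages were lower for 5 of 6 genes tested, with a median difference of -0.31, and none of their 9 probes was called. CD14 (probe A_72_P088666) was at 8.19, 7.24, 7.72 and 7.74 in the control arrays and at 6.48, 5.60, 7.56 and 6.91 in the HFCSD arrays. The difference on this probe was -1.09 (SE 0.39) with overlapping groups. The brighter CD14 probe (A_72_P050971) was at 11.19, 10.17, 10.67 and 10.84 in the control arrays. In the HFCSD arrays it was at 9.96, 8.52, 10.71 and 10.02, also with overlap. FCGR1A went the other way, with a difference of 0.90 (SE 0.66). LYZ, the brightest marker of these cells, lay between 13.05 and 15.81 in the control arrays and between 12.52 and 14.64 in the HFCSD arrays. The median was -0.44, 0.27 and -0.62 within the slides and -0.26 with the slide as a block. It was -0.58 without control array 4, -0.09 without control array 1 and -0.06 without HFCSD array 1. T cell markers were higher for 8 of 9 genes, with a median of 0.19 that was 0.63, 0.30 and -0.24 within the slides, 0.09 without control array 4 and 0.35 without control array 3, and CD3E, a chain of the T cell receptor complex, differed by 0.48. In bulk samples, fewer cells of a type and less RNA per cell cannot be told apart, and the part that cell composition had in the differences above was not tested. Without control array 1 and HFCD array 2, the arrays with the least platelet RNA, which was chosen after seeing the data, 13 probes were called, 9 higher and 4 lower.

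The remaining lists had 0 probes called. Of all 30 lists with a median, 7 kept its sign within each of the 3 slides, namely cholesterol synthesis, glucose and fructose handling, interferon-induced genes, chemokine receptors, MHC class II, ribosomal proteins and the respiratory chain, and these also kept it under every alternative run for the lists. Signs drawn at random would also agree across the slides for part of the lists. That share was not computed, so the count of 7 does not set these lists apart from chance. Within slide 2, control array 2 and HFCSD array 3 alone were compared. The median difference was -0.46 for glucose and fructose handling, where 6 of 6 genes were lower, and -0.42 for chemokine receptors, where 7 of 7 were lower. For chemokine receptors it ran from -0.51 without HFCSD array 4 to -0.24 with normexp. The median was -0.28 for Toll-like receptors and their adaptors, 0.06 for inflammatory cytokines and chemokines (from -0.21 without control array 4 to 0.28 without control array 1, and -0.01 with the arrays scaled to their 75th percentile), 0.01 for immediate early and stress genes, -0.04 for fatty acid uptake and oxidation and -0.08 for antioxidant enzymes. It was -0.02 for MHC class I and peptide loading (0.02 with normexp, 0.21 with the slide as a block and 0.27 without HFCSD array 1), 0.24 for the 2 genes tested of MHC class II (0.38 without control array 4 and 0.07 with dim probes left in), 0.16 for the cell cycle and -0.07 for adhesion and migration. For markers of other cells it was 0.42 for neutrophils (0.11 without control array 2, and -0.40 within slide 1) and 0.12 for B cells (-0.06 without HFCSD array 3, and -0.18 within slide 3). It was -0.25 for NK and cytotoxic cells (-0.40 to -0.15 with 1 array left out, and 0.25 within slide 1) and -0.31 for eosinophils and basophils (-0.59 to -0.10, and 0.28 within slide 1). For markers of tissues it was -0.61 for smooth muscle and vessel wall, -0.14 for skeletal muscle, -0.14 for liver and -0.28 for adipose tissue, and the erythroid list had 0 genes tested. With 1 array left out these ran from -1.06 to -0.20, from -0.59 to 0.37, from -0.42 to 0.06 and from -0.35 to -0.12. Within slides 1, 2 and 3 the smooth muscle median was 0.13, 0.07 and -0.68. Leaving out 1 array also took the median to between -0.35 and -0.11 for Toll-like receptors, -0.23 and 0.25 for immediate early genes, -0.16 and 0.06 for fatty acid uptake, -0.14 and 0.05 for antioxidant enzymes, 0.04 and 0.28 for the cell cycle and -0.29 and 0.04 for adhesion.

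**Figure D3:**
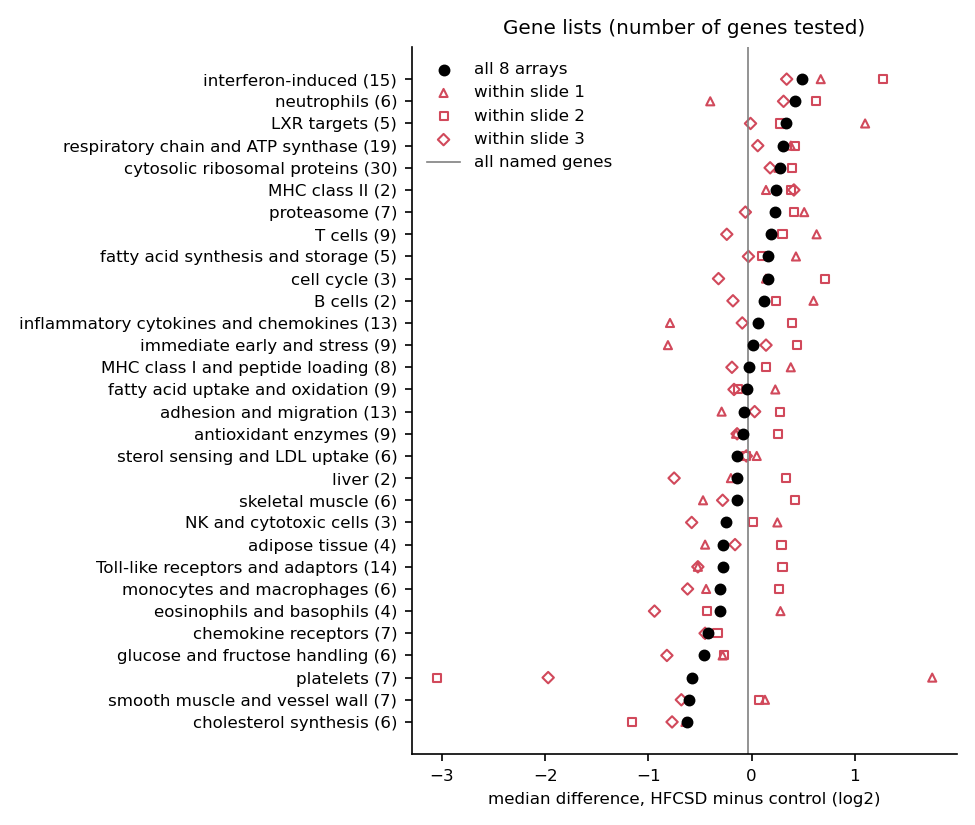
Median difference in normalized signal (log2), HFCSD minus control, over the tested genes of each list, with filled points for the 8 arrays, open symbols for the difference within each slide and a vertical line for all named genes at -0.03. Cholesterol synthesis lies lowest, at -0.63, and interferon-induced genes highest, at 0.49.

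**Figure D4:**
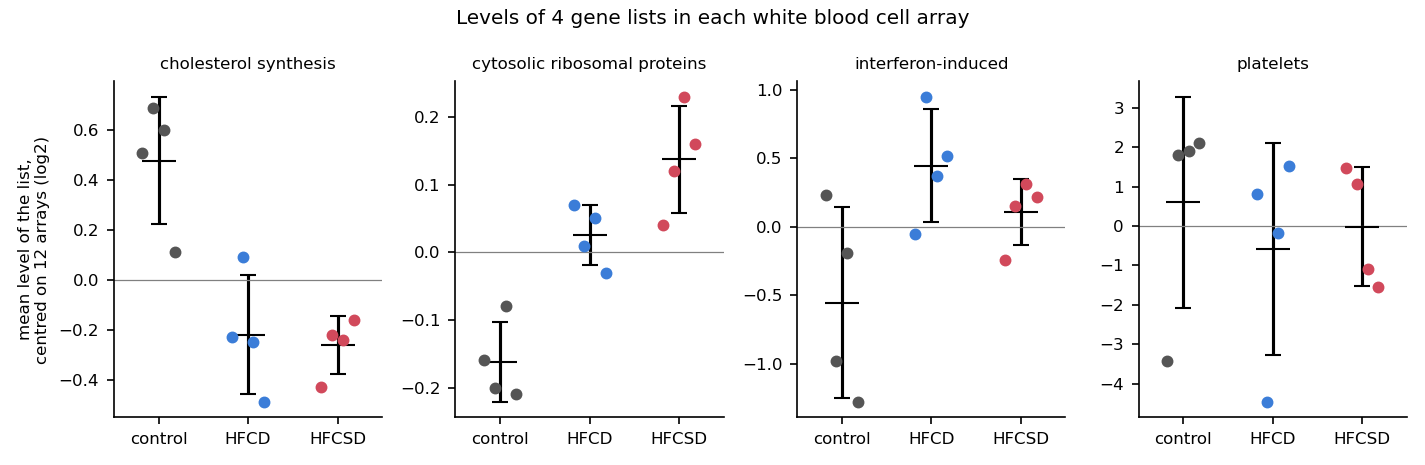
Mean level of 4 gene lists (log2, centred over the 12 arrays) in each white blood cell array, with points for arrays, a horizontal line for the group mean and bars for the SD. The HFCSD and control arrays do not overlap for cholesterol synthesis and ribosomal proteins, and control array 1 lies at -3.42 for platelets.

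The diets with and without added sucrose were compared to ask what sucrose adds. With limma 0 of 18799 probes (0%) were called between HFCSD and HFCD, 408 (2.17%) had an unadjusted p under 0.05, and 67 also differed more than 2-fold. ABCA1 was at 12.25, 12.66, 12.57 and 12.46 in the HFCD arrays, and the HFCSD arrays were 0.12 higher on average. SQLE was at 6.12, 6.33, 5.94 and 5.76 in the HFCD arrays, and HFCSD differed from them by -0.14. HFCSD and HFCD share the same 4 control arrays, against which ABCA1 was higher by 2.53 and 2.42 and SQLE differed by -1.62 and -1.48. The smallest of the rises called against control was at 6.86, 6.81, 6.58 and 6.56 in the HFCD arrays, all below the HFCSD arrays, with a difference of 0.76 that was not called. With dim probes left in, 1 probe was called.

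Whole blood of pigs on the same diets at 27 weeks (4 control and 3 HFCSD arrays, extracted with another kit) shows whether the difference was alike there. ABCA1 was higher in HFCSD by 2.29 in whole blood and SQLE differed by -2.25. The HFCSD minus control difference in white blood cells, less that in whole blood, was tested. It gave 0.24 for ABCA1 (adjusted p 0.63 in limma) and 0.63 for SQLE (adjusted p 0.322 in limma). The test called 281 of 20379 probes (1.38%), 82 where the HFCSD minus control difference was higher in white blood cells than in whole blood and 199 where it was lower, while the median over all probes was 0.27. F10 differed by -1.01 in white blood cells and by 2.63 in whole blood (difference -3.65, adjusted p 0.0137 in limma), and RPS25 by 0.87 and -0.89 (difference 1.76, adjusted p 0.0259 in limma). In whole blood 50.2%, 49.4%, 46.5% and 38.9% of the spots were well above background on the control arrays and 39.6%, 38.8% and 39.7% on the HFCSD arrays, and with that share as a covariate the count was 2. It was 87 with the arrays scaled to their 75th percentile and 838 with normexp. Without single arrays it was 126 (control array 2), 97 (control array 4), 84 (HFCSD array 1), 105 (HFCSD array 3) and 110 (HFCSD array 4), all of white blood cells.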

How the data were processed

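RNA of 45 whole blood and white blood cell samples was measured on 1-colour Agilent porcine arrays. The deposited scanner files hold background-subtracted signal as intensity, made by the authors with Agilent Feature Extraction (9.5.3.1 per the labels, 10.5.1.1 per the file headers), and the deposited series table holds intensity that the authors had quantile normalized. From the scanner files, control spots and spots marked as outliers were left out, the processed signal was taken to log2 and quantile normalized over the 45 arrays, and spots of a probe were averaged with limma 3.58.1 in R 4.3.3 (tables with Python 3.11.15, numpy 2.4.6 and pandas 2.3.3, figures with matplotlib 3.10.9). limma was fitted to the 12 white blood cell arrays (control, HFCD, HFCSD) without pairing, and a probe needed 2 usable arrays per group. Gene lists had their members averaged over probes before the median was taken. Of 43603 probes, 2689 were named from the array annotation and the reference tables. The fit was tested on simulated data. The number of arrays limits the precision.

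The members of the comparison and the gene lists were chosen with earlier results of these data known. Named genes were taken by rule: probes called, of which at most 2 unnamed ones that rose and 2 that fell are given by identifier; named genes at an unadjusted p under 0.05 with separated groups, the 12 largest differences in each direction; up to 4 genes per list; ABCA1, SQLE, CNN1, TPM1 and the tested members of the sterol lists; and the brightest probe of each cell marker.

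Alternatives were scaling to the 75th percentile, normexp background correction (offset 50), the values of the deposited series table, normalization among the 12 arrays, other filters on dim probes, blocks for slide and replicate number, other sets of arrays in the fit, a covariate, and leaving out single white blood cell arrays. Arrays of other weeks entered only the normalization and 1 alternative.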

Additional observations from a re-analysis of the deposited data

Results flagged for a closer look

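Within each group of 4 arrays, the value of every named gene and the mean level of every list were compared with the others by Dixon's test for 1 array far from the rest. Of 86 such values, each looked at in the 3 groups, 26 of 258 groups had such an array. Chance alone gives about 1 in 20 for independent values, which these are not, since platelet genes such as CLU, ITGA2B and VWF vary together. Control array 1 was far below the other control arrays for the platelet list, at -3.42 where the others were at 1.81 to 2.10, for CLU at 7.45, ITGA2B at 8.62, VWF at 6.87 and TPM1 at 2.99, and also for PLTP at 3.84 and the antioxidant enzymes at -0.36. HFCSD array 1 was far below the other HFCSD arrays for CYP51A1 at 7.01, FFAR2 at 1.77, MYD88 at 3.95, SREBF1 at 8.93, fatty acid synthesis and storage at -0.23 and MHC class II at -0.12. HFCSD array 2 stood apart for CHI3L1 at 7.59 and neutrophils at -0.41, HFCSD array 3 for CD3E at 9.26, adipose tissue at 0.35 and the respiratory chain at 0.16, and HFCSD array 4 for skeletal muscle at -0.31. Control array 4 stood apart for MSMO1 at 5.46 and SULT1A3 at 12.36, and control array 2 for neutrophils at -0.65 and DGAT1 at 5.99. Among the HFCD arrays, array 4 was far below the others for SCD at 3.69, array 2 for KLF7 at 3.38, and array 3 was above them for LAG3 at 7.91. The flagged values of FFAR2, TPM1, KLF7 and SCD lay under the floor of their array. The causes were not tested.

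The difference between HFCSD and control was itself different in white blood cells and whole blood for 281 probes in limma. Among the genes named these were F10, with a difference between the sample types of -3.65, RPS25 with 1.76, and 1 unnamed probe called in white blood cells with 2.12.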

How the results depend on the processing

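The count of 7 probes called between HFCSD and control was 7 or 8 with scaling to the 75th percentile, normexp, the deposited series table, quantile normalization over 12 arrays, the 3 other filters on dim probes, the slide as a random block and the covariate. It was 2 with the slide as a fixed block, 1 with only these 8 arrays fitted, 79 with all 45 arrays in the fit, 0 with the methods' t-test, 13 without control array 1 and HFCD array 2 (chosen after seeing the data) and 2 to 59 without 1 array. Replicate numbers do not pair pigs across diets, and only 1 of the 4 HFCSD arrays was most like the control array of its own number (r -0.443, 0.47, -0.351 and -0.15 across probes, which are not independent replicates); with the replicate number as a block the count was 3. The count of 328 by the methods' criterion was 86 with normexp, 522 with the less strict mark of signal over background, 542 with no filter, 212 with probes above background on every array, and 204 to 654 without 1 array. The count of 0 between HFCSD and HFCD was 1 with the less strict mark and 1 with no filter, and 0 under the other alternatives, the slide as a fixed block (chosen after seeing the data) included. The count of 281 between sample types was 87 with the 75th percentile, 838 with normexp, 2 with the covariate and 84 to 286 without 1 white blood cell array. No whole blood array was left out. The causes were not tested.

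Of 1045 values of 55 named probes under 19 alternatives at most, 981 kept their direction and their side of the threshold, 46 lost a call, 5 gained one and 13 changed sign, none of them called. ABCA1 kept its call under all 19, which do not include the methods' t-test. The changes of sign were SCAP at -0.01 with the 75th percentile and -0.05 without control array 1 and HFCD array 2, NPC1 at 0.10 in the latter, SCD at -0.04 with normexp, and SREBF1 at 0.17 and SREBF2 at 0.09 with the slide as a fixed block. Without 1 array, CNN1 ran from -2.44 to 0.18, NPC1 from -0.23 to 0.10, SCAP from -0.05 to 0.11, SCD from -0.37 to 0.83, SREBF1 from -0.33 to 0.31 and SREBF2 from -0.48 to 0.04. Of 451 medians of lists under alternatives, 14 moved by more than the spread between replicates and 40 changed sign, and 19 of 30 lists kept their sign under all alternatives run. For the lists, the slide as a fixed block and leaving SQLE out of its list were chosen after seeing the data. Dim probes are limited by the signal over background, well above it for 43.9% to 50.9% of spots.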
